A study of Mus musculus with 220 samples.

Results

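AXB19a/PgnJ is a recombinant inbred mouse strain derived from A/J and C57BL/6J. By their names, AXB19/PgnJ and AXB19b/PgnJ were taken as its sister substrains of common origin, and the strain labels give the names alone. The comparison was made in the livers of F1 daughters: 2 mice with an AXB19a mother were set against 2 mice with an AXB19 mother and 3 mice with an AXB19b mother, 7 of the 220 mice of the series. Mice were assigned by the strain label alone. All 7 mice, like the other mice with arrays, were female, inherited human APOE-Leiden and CETP transgenes through their C57BL/6J father, and were 24 weeks old when sampled, after 8 weeks of chow followed by 16 weeks on Western diet. Liver RNA of each mouse was read once, on 1 Affymetrix array, and the values are log2 signals of probe sets summarised by RMA (robust multi-array averaging), so that a difference of 1 is a factor of 2. The spread used for every test was estimated over the 87 maternal strains with 2 or more mice. The labels do not give litter, cage or collection day, so that the p-values leave out whatever mice of a strain shared.

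A recombinant inbred strain is made by crossing a pair of inbred strains and then mating brother to sister until every locus is fixed for the allele of one progenitor or the other. Sublines kept apart after, or shortly before, this point carry the same mosaic of progenitor alleles except where a locus was still segregating or a new mutation arose. Because the father was C57BL/6J throughout, each liver held a C57BL/6J haplotype and a maternal haplotype, and a maternal C57BL/6J allele made the mouse homozygous at that locus. The question of the comparison is therefore how far livers that should carry nearly the same maternal genome differed.

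The 7 livers expressed hepatocyte transcripts at a like level, with albumin (Alb) between 13.40 and 13.73, transthyretin (Ttr) between 12.94 and 13.13 and apolipoprotein E (Apoe) between 12.86 and 13.03. The adipocyte hormone Adipoq lay between 2.70 and 3.02 and muscle creatine kinase (Ckm) between 2.72 and 3.02, below the median probe set mean of 3.46. Array medians of the 7 mice lay between 3.44 and 3.5. The sample titles carry the numbers 1166 and 1167 for AXB19a, 1148 and 1149 for AXB19 and 684, 685 and 827 for AXB19b, and the labels do not say what these numbers stand for.

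AXB19a mouse 1 stood apart from the other 6 livers, and most of what follows rests on it to some degree. Over 16261 named probe sets with a mean above the median, the root mean square (RMS) difference of mouse 1 to the 5 sister mice had a median of 0.442 (range 0.427 to 0.493). The same distance for AXB19a mouse 2 had a median of 0.286 (range 0.274 to 0.345). AXB19 and AXB19b mice differed from each other by a median of 0.277 (6 pairs, range 0.248 to 0.306), which was close to the distance within AXB19 (0.240, 1 pair) and within AXB19b (median 0.278, 3 pairs). The 2 AXB19a mice differed by 0.375, the second largest distance within any of 18 AXB/BXA strains, after AXB8/PgnJ at 0.440. Mice of 1 other AXB/BXA strain differed by a median of 0.285 (29 pairs) and mice of different AXB/BXA strains by a median of 0.377 (1031 pairs, each with at most 1 mouse of the 3 substrains). AXB19a mouse 2 and the sisters were thus about as near to each other as mice of a single strain, while the median distance of mouse 1 to the sisters exceeded the median between AXB/BXA strains, which all derive from the same progenitors. The liver nearest to AXB19a mouse 2 was AXB19 mouse 2 (0.274), closely followed by mice of other strains, BXA24/PgnJ mouse 2 (0.277) and BXA2/PgnJ mouse 2 (0.281). Its nearness was thus not particular to the sisters. The liver nearest to AXB19a mouse 1 was AXB2/PgnJ mouse 1 (0.309).

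**Figure D1:**
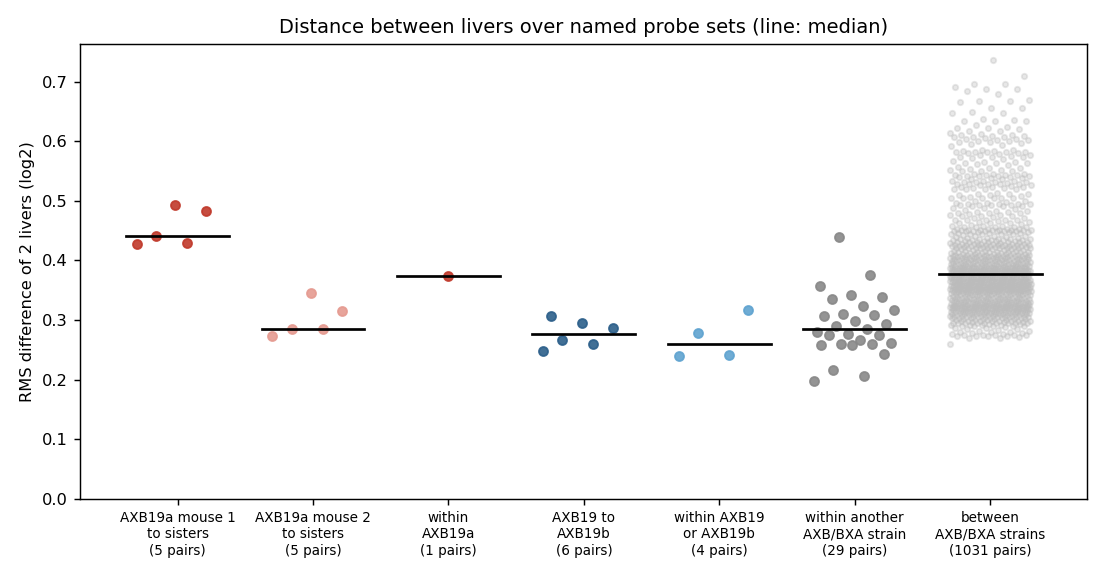
RMS log2 difference between pairs of livers over 16261 named probe sets, by class of pair, with a dot for each pair and a line at the median. The 5 pairs of AXB19a mouse 1 with a sister lie at 0.427 to 0.493 and those of AXB19a mouse 2 at 0.274 to 0.345, against a median of 0.277 for AXB19 to AXB19b.

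In AXB19a livers, 96 of 17097 genes (0.562%) passed the test against the mean of the AXB19 and AXB19b strain means, 48 higher (0.281%) and 48 lower (0.281%). Over all 45037 probe sets, 202 were called (0.449%), 107 higher (0.238%) and 95 lower (0.211%). When each array was centred on its median, 137 probe sets were called higher and 63 lower, so that the split of directions depended on the scaling. The 2 AXB19a mice lay beyond all 5 sister mice for 92 of the 96 called genes, 47 above and 45 below, where 18.1% of all genes measured were separated in this way (7.8% above and 10.3% below). The call at an adjusted p under 0.05 (limma, Benjamini-Hochberg over all probe sets) leaned on mouse 1: without it only 4 probe sets (0.00888%) and 2 genes (0.0117%), Ifi202b and Catspere2, were called, and without mouse 2 there were 1077 probe sets (2.39%) and 599 genes (3.5%). All 96 called genes kept their direction in mouse 2 alone, with a median size of 0.54, against 0.89 in mouse 1 alone and 0.72 over both. These genes were called on both mice, so that direction and size in mouse 2 were in part fixed by the choice. The sister mice mattered less, although without AXB19 mouse 1 the count was 32 probe sets and without AXB19b mouse 3 it was 87.

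Set against each sister alone, AXB19a differed from AXB19 at 66 probe sets (0.147%), 32 of them higher (0.0711%), and from AXB19b at 86 probe sets (0.191%), 52 of them higher (0.115%). These counts share the AXB19a mice. AXB19b differed from AXB19 at 2 probe sets (0.00444%), both lower in AXB19b, 1 for the ribosomal protein gene Rps6 and 1 for the Rac GTPase-activating protein gene Chn2, and at no gene by its main probe set, with 2078 probe sets (4.61%) at an unadjusted p under 0.05. A test of any difference among the 3 substrains called 71 probe sets (0.158%). Among the 105 pairs of other AXB/BXA strains the same test called between 95 and 10759 probe sets, with a median of 763, and among the 45 pairs of a substrain with another strain between 32 and 7489, with a median of 287. All 3 substrain pairs were below both medians, but they were not the lowest pairs of AXB19a. AXB19a differed from AXB13/PgnJ at 32 probe sets, fewer than from either sister, and from BXA8/PgnJ at 79.

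The largest difference was that of Ifi202b, an interferon-activated gene of the Ifi200 family that lies on chromosome 1 and whose protein binds DNA in the cytosol and inhibits the Aim2 inflammasome. Its signal was 3.43 and 3.35 in AXB19a livers, against 7.06 and 6.94 in AXB19 and 7.38, 7.75 and 7.0 in AXB19b. Both AXB19a mice were close to their array medians, and all 5 sisters lay more than 3 units above them. A/J mothers gave 7.22 ± 0.68 (SD) and C57BL/6J mothers 3.03 ± 0.03 (SD), so that AXB19a livers were near C57BL/6J and the sisters near A/J. The difference was -3.80 (SE 0.48, adjusted p = 2e-08) and -3.84 without mouse 1, where it was still called (adjusted p = 2.46e-04). Short probes can mix transcripts of the Ifi200 family. A further probe set that carries no gene name here fell by 4.43 (adjusted p = 9.3e-11), with the same pattern, and was called without mouse 1 too.

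Since Ifi202b carried the largest difference, the RefSeq sequence around its start is shown, 250 bases before the start and 50 after it (GRCm38.p6, chr1:173982795-173983094, minus strand, C57BL/6J allele), with matches to TATAAA on either strand in capitals.
Ifi202b: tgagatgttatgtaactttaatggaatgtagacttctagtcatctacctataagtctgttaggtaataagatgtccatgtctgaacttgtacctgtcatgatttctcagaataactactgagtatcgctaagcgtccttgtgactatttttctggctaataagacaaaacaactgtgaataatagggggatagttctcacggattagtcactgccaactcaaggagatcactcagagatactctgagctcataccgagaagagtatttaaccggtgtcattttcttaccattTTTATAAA
The capitals hold 2 overlapping matches, TATAAA and its reverse complement, near the 3′ end of the window. They lie among the 50 bases after the start, not before it. TATAAA occurred on either strand in 13.6% of 32851 mouse promoter windows of the same length. This is the reference allele, and the A/J allele was not analysed here.

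Several genes near Ifi202b on distal chromosome 1 moved as well. By the RefSeq order of genes, 9 of the 13 called genes of chromosome 1 lay in a stretch of 140 measured genes that runs from Nr1i3 to Prox1os, out of 976 measured on the chromosome. The ends of this stretch were set at called genes after the values were seen, so that its counts are a description with no test. Besides Ifi202b, the lower genes were 9130409I23Rik, Kif26b, Kcnj10, Catspere2 and Apcs, and the higher genes were Nr1i3, Prox1os and Psen2. For all 9, the mean of the AXB19a livers was nearer the C57BL/6J mean than the A/J mean, as it was for 77 of the 87 called genes outside the stretch. Taken alone, mouse 2 was nearer A/J at Kif26b and Prox1os. For Nr1i3 the means of A/J (8.47) and C57BL/6J (8.59) were too close for the nearer one to tell much.

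The uncharacterised gene 9130409I23Rik had 7.19 and 7.96 in AXB19a livers, against 9.57 and 9.46 in AXB19 and 9.28, 9.65 and 9.20 in AXB19b. Both AXB19a mice lay over a unit below the lowest sister, near C57BL/6J at 7.66 rather than A/J at 9.20. The difference was -1.87 (SE 0.30, adjusted p = 6.09e-05), and -1.49 without mouse 1.

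Kcnj10, an inwardly rectifying potassium channel, had 3.70 and 4.01 in AXB19a, against 5.37 and 5.34 in AXB19 and 4.68, 4.82 and 5.72 in AXB19b (difference -1.36, SE 0.23). Kif26b, a kinesin family member, had 3.07 and 3.59 in AXB19a, against 5.39 and 4.71 in AXB19 and 4.65, 4.58 and 4.47 in AXB19b (difference -1.48, SE 0.22). Catspere2, a gene of the sperm CatSper channel complex, had 2.35 and 2.58 in AXB19a, against 3.54 and 3.63 in AXB19 and 3.68, 3.97 and 2.90 in AXB19b, all low signals on this array (difference -1.09, SE 0.15). In each of these genes the AXB19a mice were beneath all sisters. Without mouse 1 the differences were -1.20 for Kcnj10, -1.22 for Kif26b and -0.97 for Catspere2.

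Apcs encodes serum amyloid P component, a pentraxin that is a main acute phase protein of the mouse. Its signal was 11.32 and 11.25 in AXB19a livers, against 12.04 and 12.17 in AXB19 and 11.84, 11.67 and 11.80 in AXB19b. The 2 AXB19a mice were close to each other and below every sister, and C57BL/6J (11.06) was also below A/J (12.08). The difference was -0.65 (SE 0.13, adjusted p = 0.00383) and -0.68 without mouse 1.

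Nr1i3, the nuclear receptor CAR that senses drugs and bile acids and induces Cyp2b10, had 9.18 and 8.54 in AXB19a, against 7.62 and 7.58 in AXB19 and 8.18, 7.64 and 7.76 in AXB19b. AXB19a ranked 17 of 96 strains for it, and AXB19 ranked 96 and AXB19b 94. The difference was 1.13 (SE 0.22, adjusted p = 0.00257). Here A/J (8.47) and C57BL/6J (8.59) were alike, unlike at the genes above. Psen2, a catalytic subunit of gamma-secretase, had 10.72 and 10.66 in AXB19a, against 10.17 and 10.17 in AXB19 and 10.10, 10.18 and 9.82 in AXB19b (difference 0.59, SE 0.11). Both AXB19a mice were again above all sisters and near C57BL/6J (10.88) rather than A/J (9.94). Prox1os, a transcript antisense to the hepatocyte transcription factor gene Prox1, had 7.19 and 6.45 in AXB19a, against 5.81 and 6.01 in AXB19 and 6.05, 5.40 and 5.73 in AXB19b (difference 1.00, SE 0.22).

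Other probe sets of genes in the stretch, which do not stand for their gene here, were called too. Pex19, a chaperone for peroxisomal membrane proteins, had 6.93 and 6.68 in AXB19a at such a probe set, against 5.49 and 5.76 in AXB19 and 5.94, 5.69 and 5.86 in AXB19b (difference 1.07, adjusted p = 9.74e-06). Nit1, Ifi205 and Srp9 each had a probe set that was higher in AXB19a, by 0.78, 0.88 and 0.35. Whether sequence variants lie under these probes was not tested.

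**Figure D2:**
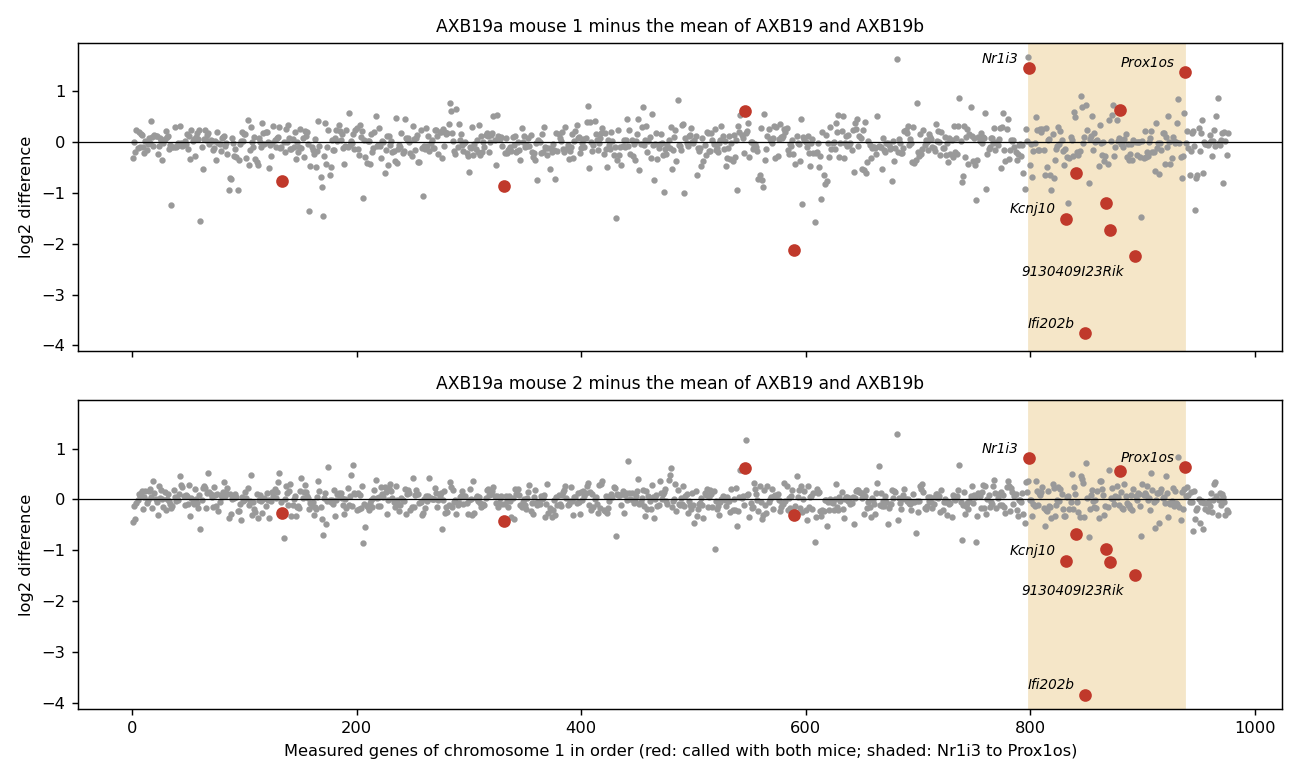
Log2 difference of AXB19a mouse 1 (top) and mouse 2 (bottom) from the mean of AXB19 and AXB19b for 976 measured genes of chromosome 1 in their order along it, with called genes in red. Ifi202b lies near -3.8 in both mice, and 9 of the 13 called genes lie in the shaded stretch of 140 genes from Nr1i3 to Prox1os.

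To set the stretch beside the rest of the genome, each AXB19a mouse was scored by the nearer progenitor mean at genes whose A/J and C57BL/6J mice did not overlap, whose means differed by at least 0.5, and at which all 5 sister mice were nearer A/J. In the stretch there were 14 such genes, and mouse 1 was nearer C57BL/6J at 14 and mouse 2 at 10. Those at which both AXB19a mice were nearer C57BL/6J included the Fc receptor gamma chain Fcer1g, the immune cell receptor Ly9, Igsf8, the formin Fmn2 and Kmo, an enzyme of tryptophan breakdown. None of these named genes was called, and the score takes the nearer mean however small the margin. In mouse 2, Kmo was 10.04, against 9.97 in the highest sisters, with A/J at 9.66 and C57BL/6J at 10.34. Outside the stretch there were 691 such genes, and mouse 2 was nearer C57BL/6J at 138 of them (20%), with between 5.26% and 35.7% on each of the other 19 chromosomes. Mouse 1 was nearer C57BL/6J at 548 of the 691 (79.3%), and was high on every chromosome. The stretch thus differed clearly from whole chromosomes in mouse 2 only. Its ends had been set at called genes, and the calls use mouse 2 as well. Ifi202b, 9130409I23Rik, Kcnj10, Apcs and Psen2, all called, are among the 10 genes of mouse 2. Its share in the stretch was therefore in part fixed by this choice, and stretches of like size elsewhere were not scored.

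**Figure D3:**
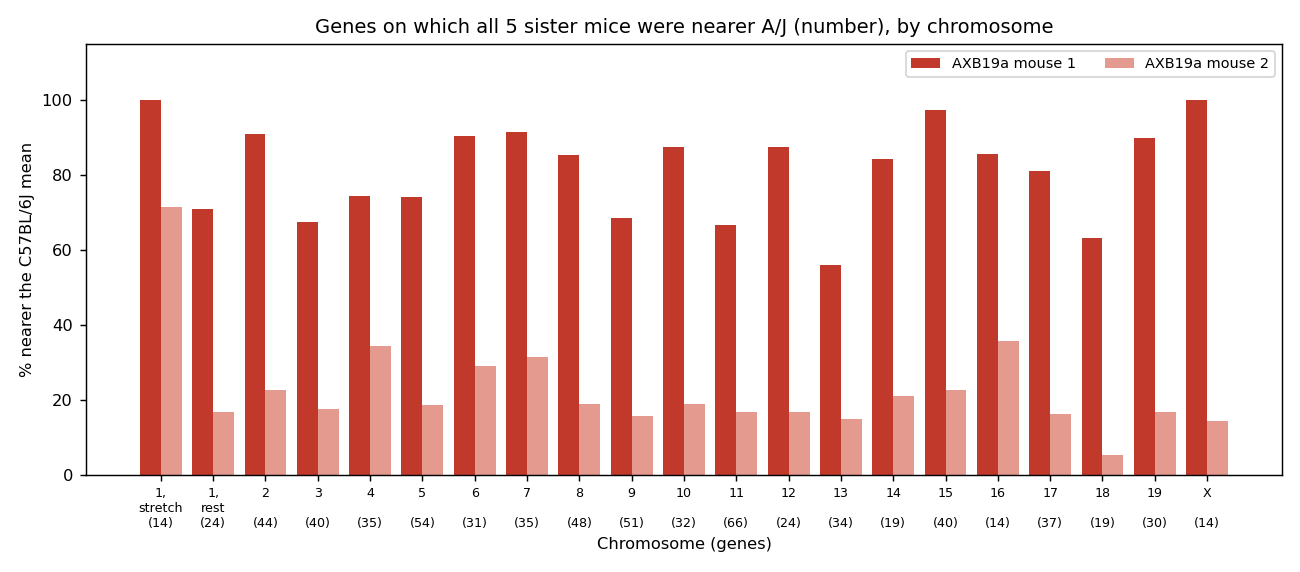
Percent of genes at which each AXB19a mouse was nearer the C57BL/6J mean than the A/J mean, by chromosome, among genes at which all 5 sister mice were nearer A/J (their number in brackets). Mouse 2 reaches 71.4% in the chromosome 1 stretch and lies between 5.26% and 35.7% on the other chromosomes, while mouse 1 is high throughout. The ends of the stretch were set at called genes after the values were seen.

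The same check on probe sets that vary mainly between strains was used to ask whether the substrains carry like progenitor alleles. The 121 probe sets were chosen without the 7 mice, by an A/J to C57BL/6J difference of at least 1 without overlap and a between-strain share of variance of at least 0.8 in the other AXB/BXA strains. AXB19 and AXB19b mice were scored alike at a median of 90.1% of them, AXB19a mouse 2 and the sisters at 82.6%, AXB19a mouse 1 and the sisters at 57.9%, and mice of different strains at 57%. The share scored A/J-like was 22.3% in AXB19a mouse 1 and 50.4% in mouse 2, against 61.2% and 64.5% in AXB19 and 57% to 70.2% in AXB19b. On 40 probe sets that all mice of every other strain scored alike, a set added after the data were seen, agreement with the sisters was 80% for AXB19a mouse 1 and 85% for mouse 2, against 96.25% between AXB19 and AXB19b and 55% between strains. By this stricter set mouse 1 was nearer to the sisters than mice of different strains were to each other, with a median of 80% against 55%. On 879 probe sets chosen with looser limits the order was turned, with 33.9% for mouse 1 and the sisters against 59.6% between strains, so that the place of mouse 1 depended on the set.

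At 7 of the 121 probe sets both AXB19a mice were scored opposite to all 5 sisters, each time as C57BL/6J-like. Named ones were Ifi202b, 9130409I23Rik, Tifab, Anxa1 and Cyp2b10. Cyp2b10, a phenobarbital-inducible cytochrome P450 and a target of CAR, had 4.86 and 4.01 at its main probe set in AXB19a livers, against 2.44 and 3.13 in AXB19 and 2.82, 3.35 and 3.12 in AXB19b. AXB19a was above all sisters, but the difference of 1.5 (SE 0.55) did not pass the test (adjusted p = 0.184). Anxa1, an anti-inflammatory phospholipid-binding protein, had 8.32 and 9.38 in AXB19a, against 9.61 and 9.69 in AXB19 and 9.89, 9.86 and 9.89 in AXB19b (difference -0.92, adjusted p = 0.0593).

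Away from chromosome 1, the largest rise was that of Mfsd2a, a membrane transporter of lysophosphatidylcholine whose liver transcript is known to rise on fasting. Its signal was 9.12 and 8.60 in AXB19a livers, against 6.01 and 6.22 in AXB19 and 5.71, 6.01 and 4.71 in AXB19b. The AXB19a mice were more than 2 units above the highest sister, near C57BL/6J (8.59) rather than A/J (5.82), and AXB19a ranked 18 of the 96 strains. The difference was 3.07 (SE 0.61, adjusted p = 0.00376) and 2.81 without mouse 1.

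The next rises were those of St3gal5 and the uncharacterised gene 1810053B23Rik. St3gal5, the sialyltransferase that makes the ganglioside GM3, had 9.52 and 8.90 in AXB19a, against 7.73 and 7.78 in AXB19 and 7.60, 7.28 and 7.56 in AXB19b (difference 1.59, SE 0.28). The gene 1810053B23Rik had 4.58 and 5.0 in AXB19a, against 3.26 and 3.27 in AXB19 and 2.76, 3.18 and 3.47 in AXB19b (difference 1.59, SE 0.36). For both genes AXB19a exceeded A/J and C57BL/6J, ranking 5 and 8 among the strains.

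Other genes higher in AXB19a included Pim3, a serine/threonine kinase, and Tsc22d3, a leucine zipper gene that glucocorticoids induce. Pim3 had 7.30 and 6.91 in AXB19a, against 5.47 and 5.97 in AXB19 and 5.68, 5.68 and 5.86 in AXB19b (difference 1.38, SE 0.25). Tsc22d3 had 8.92 and 8.69 in AXB19a, against 7.72 and 7.65 in AXB19 and 7.26, 7.44 and 7.57 in AXB19b (difference 1.25, SE 0.30). Neither gene overlapped between AXB19a and the sisters. Angptl4, a PPARa target and inhibitor of lipoprotein lipase, had 10.58 and 10.18 in AXB19a, against 9.36 and 9.66 in AXB19 and 9.06, 8.52 and 9.46 in AXB19b (difference 1.12, SE 0.21). Of the remaining genes among the 15 largest rises, Tedc2, Tpbgl, the potassium channel gene Kcnn2, the glycogen-targeting phosphatase subunit Ppp1r3b, N4bp2l1, the receptor gene Vipr1 and the histidine ammonia-lyase gene Hal rose by between 0.92 and 1.19. In all 7 of these genes both AXB19a mice exceeded the A/J mean.

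**Figure D4:**
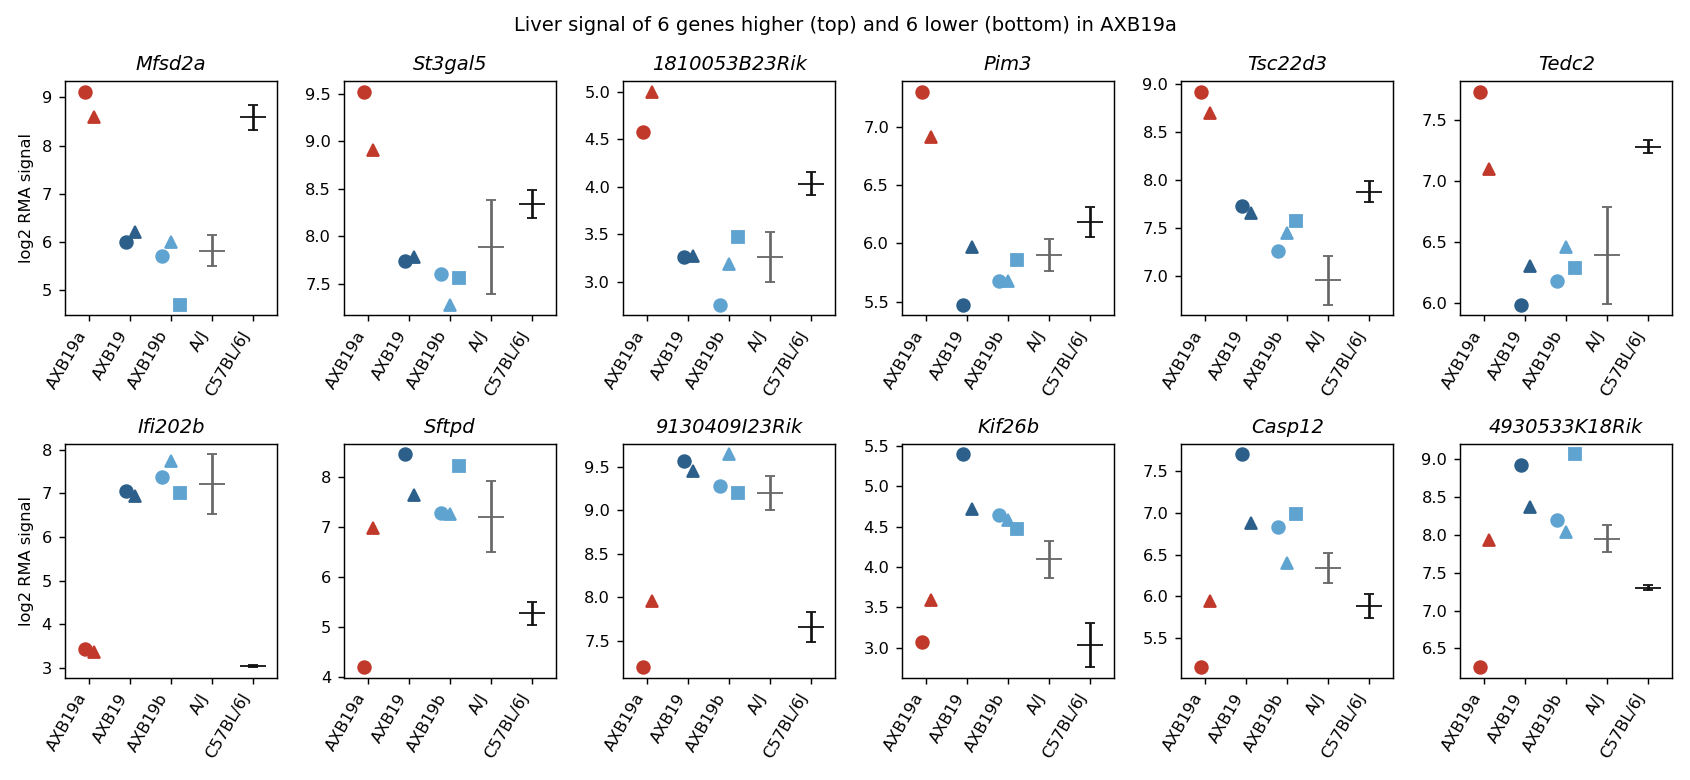
Log2 RMA signal of the 6 genes with the largest rises (top) and the 6 with the largest falls (bottom) in AXB19a, with a symbol for each mouse and the mean ± SD of A/J and C57BL/6J at right. The 2 AXB19a mice lie beyond all 5 sister mice in every panel, and mouse 1 (circle) is the farther one in all panels but 1810053B23Rik and Ifi202b.

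Genes of hepatocyte metabolism were among the smaller rises. Genes given in this and other paragraphs that are neither among the 15 largest changes of a direction nor in a gene list, such as Psen2, Gpat4, Eci2 and Thbs2, were picked after their values were seen. Gpat4, which starts glycerolipid synthesis, had 8.04 and 8.02 in AXB19a, against 7.62 and 7.24 in AXB19 and 7.60, 7.38 and 7.38 in AXB19b (difference 0.59, SE 0.13). Eci2, an enzyme of unsaturated fatty acid oxidation, had 10.41 and 10.01 in AXB19a, against 9.46 and 9.52 in AXB19 and 9.71, 9.52 and 9.64 in AXB19b (difference 0.65, SE 0.12). The carboxylesterase genes Ces1d, Ces1e and Ces1f rose by 0.68, 0.80 and 0.63, although these close paralogs may share probe signal. All 5 genes were higher in both AXB19a mice than in any sister.

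Several lower genes away from chromosome 1 were wide apart between the AXB19a mice, while others, such as Tnfaip2 (7.56 and 7.55), were not. Sftpd, surfactant protein D, a collectin of innate defence, had 4.19 and 6.97 in AXB19a, against 8.45 and 7.63 in AXB19 and 7.29, 7.25 and 8.22 in AXB19b. Mouse 1 was more than 3 units below the lowest sister, and mouse 2 was just below it. The difference was -2.23 (SE 0.51, adjusted p = 0.0167) and -0.84 without mouse 1. Casp12, a caspase of the endoplasmic reticulum, had 5.15 and 5.95 in AXB19a, against 7.70 and 6.88 in AXB19 and 6.83, 6.40 and 6.98 in AXB19b (difference -1.46, SE 0.35).

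Several genes of the extracellular matrix were called lower, some of them picked after their values were seen. Loxl1, which crosslinks elastin, had 4.73 and 5.89 in AXB19a, against 7.36 and 6.72 in AXB19 and 6.18, 6.09 and 6.91 in AXB19b (difference -1.40, SE 0.36). Col15a1, a basement membrane collagen, had 3.08 and 4.14 in AXB19a, against 5.26 and 4.84 in AXB19 and 4.62, 4.30 and 4.95 in AXB19b (difference -1.22, SE 0.28). Fmod, the collagen-binding proteoglycan fibromodulin, had 3.68 and 5.50 in AXB19a, against 6.43 and 5.52 in AXB19 and 5.25, 5.54 and 6.10 in AXB19b. Here mouse 2 lay among the sisters, and the difference of -1.21 was -0.30 without mouse 1. Fmod lies on chromosome 1, outside the stretch from Nr1i3 to Prox1os. Svep1, Col8a1, Thbs2, Col6a1, Ccdc80 and the stellate cell globin Cygb fell by between 0.93 and 1.37. In these 6 genes the difference without mouse 1 lay between -0.94 and -0.54. Golm1, Tmem45b, Gm13889 and 4930533K18Rik were the other genes among the 15 largest falls. Without mouse 1 the difference of Golm1 was -0.57, against -1.28 over both mice. That of Gm13889 was -0.68, against -1.11, and that of 4930533K18Rik was -0.60, against -1.45. The size of the difference changed less for Tmem45b, with -1.05 against -1.24.

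Gene lists of liver functions and cell types were read next, each beside the median of all genes, which was -0.02. Of 738 distinct list members measured, 12 were called over both mice (1.63%, against 0.562% of all genes), 0 without mouse 1 (0.0117% of all genes) and 73 without mouse 2 (9.89%, against 3.5% of all genes). Over all genes, 0.281% were called in each direction and 45.3% had a difference above 0, and the counts of each list stand against these shares. The shares of all genes include genes of dim signal, and the lists were not matched to them for signal level. In a piece of liver, fewer cells of a type and less RNA per cell cannot be told apart.

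Markers of bile duct epithelium were the lowest list. None of the 15 measured members was called, while all 15 had a negative difference, with a median of -1.05. The mean level over the list was 5.36 in AXB19a mouse 1 and 6.53 in mouse 2, against 7.14 and 6.76 in AXB19 and 6.71, 6.69 and 7.11 in AXB19b. The gap was mainly that of mouse 1, with a median of -1.54 in mouse 1 alone and -0.37 in mouse 2 alone. Krt19, a duct cell keratin, had 3.10 and 4.34 in AXB19a, against 5.54 and 4.90 in AXB19 and 4.87, 5.0 and 5.55 in AXB19b (difference -1.46, adjusted p = 0.0659). Epcam, an epithelial adhesion protein of duct cells, had 5.35 and 7.47 in AXB19a, against 8.43 and 7.67 in AXB19 and 7.80, 7.58 and 8.46 in AXB19b (difference -1.59, adjusted p = 0.117).

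Of 25 fibrosis and stellate cell genes, 2 were called lower, Loxl1 and Col6a1, and 0 higher, with a median of -0.62 (-0.86 in mouse 1 alone and -0.26 in mouse 2 alone). The mean level of this list was 6.88 and 7.46 in AXB19a, against 7.90 and 7.74 in AXB19 and 7.66, 7.58 and 7.83 in AXB19b. Myeloid lists were lower with no member called. Macrophage and Kupffer cell genes (29) had a median of -0.35, lipid-associated macrophage genes (18) -0.48 and MHC class II genes (11) -0.53. In mouse 2 alone these medians were -0.23, -0.22 and -0.35. Ms4a7, a macrophage membrane protein, had 6.82 and 7.46 in AXB19a, against 8.65 and 7.99 in AXB19 and 8.25, 8.30 and 8.48 in AXB19b (difference -1.19, adjusted p = 0.056).

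Cell cycle genes (29) had a median of -0.51, with 0 called and all 29 below 0, and unlike the lists above they were nearly as low in mouse 2 alone (-0.38) as in mouse 1 alone (-0.50). The mean level was 5.22 and 5.38 in AXB19a, against 5.52 and 5.86 in AXB19 and 6.03, 6.13 and 5.54 in AXB19b. AXB19 and AXB19b differed at these genes too, by a median of 0.26 in favour of AXB19b. Plk1, a mitotic kinase, had 3.19 and 3.27 in AXB19a, against 3.82 and 4.22 in AXB19 and 4.37, 4.24 and 3.47 in AXB19b (difference -0.79, adjusted p = 0.132).

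Endothelial cell genes went the other way from the duct, matrix and macrophage lists, with 15 of 20 members above 0, 0 called and a median of 0.31 (0.32 in mouse 1 alone and 0.18 in mouse 2 alone). Their mean level was 6.28 and 6.24 in AXB19a, against 6.00 and 5.94 in AXB19 and 6.25, 6.23 and 5.78 in AXB19b. AXB19b mice 1 and 2 were thus level with AXB19a. Of the 20 members, 2 lay above all sisters in both AXB19a mice, against 7.8% of all genes. The 22 hepatocyte identity genes had a mean level of 10.48 and 10.29 in AXB19a, against 10.22 and 10.34 in AXB19 and 10.27, 10.14 and 10.12 in AXB19b, and only Hal was called. Whether the cell make-up of the pieces contributed to the differences of single genes was not tested.

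Several lists of hepatocyte functions had medians above that of all genes, and others, such as acute phase genes (-0.04), did not. Of 35 genes of xenobiotic metabolism, 2 rose, Nr1i3 and Cyp2d22, and 0 fell, with a median of 0.42 (0.57 in mouse 1 alone and 0.28 in mouse 2 alone). Cyp2d22, a cytochrome P450, had 9.23 and 9.12 in AXB19a, against 8.79 and 8.54 in AXB19 and 8.74, 8.70 and 8.52 in AXB19b (difference 0.52, SE 0.13). Of 22 genes of amino acid catabolism, 2 rose, Hal and Ahcy, and 21 had a positive difference, with a median of 0.26. Ahcy, which hydrolyses S-adenosylhomocysteine, had 12.23 and 12.03 in AXB19a, against 11.69 and 11.78 in AXB19 and 11.82, 11.66 and 11.68 in AXB19b (difference 0.40, SE 0.10). The cationic amino acid transporter Slc7a2 had 11.47 and 11.53 in AXB19a, against 10.93 and 10.79 in AXB19 and 10.64, 10.97 and 10.82 in AXB19b, and was the only called gene of the 15 arginine and urea cycle genes (difference 0.67, SE 0.17).

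Of 25 PPARa targets and fatty acid oxidation genes, 1 rose, Angptl4, while 23 had a positive difference, with a median of 0.25 (0.40 in mouse 1 alone and 0.15 in mouse 2 alone). Acot3, a peroxisomal acyl-CoA thioesterase, had 9.5 and 7.97 in AXB19a, against 6.24 and 7.28 in AXB19 and 7.44, 6.78 and 5.53 in AXB19b (difference 2.06, SE 0.70, adjusted p = 0.144). Of 21 genes of sterol efflux and lipoproteins, 1 rose, Apoa5, a stimulator of lipoprotein lipase, with 11.69 and 11.55 in AXB19a, against 11.07 and 11.18 in AXB19 and 11.19, 11.17 and 11.16 in AXB19b (difference 0.47, SE 0.11). Apoe was alike in all 7 mice, with a difference of 0.08 (SE 0.06, adjusted p = 0.643). Cholesterol biosynthesis (19 genes, median -0.02) and fatty acid synthesis (19 genes, median 0.08) had 0 called members.

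For several lists the medians of the 2 AXB19a mice had opposite signs, and 3 of them are described here. Others were fatty acid synthesis (0.18 in mouse 1 alone and -0.11 in mouse 2 alone) and gluconeogenesis and insulin response (0.24 and -0.06). The lists of sterol efflux and lipoproteins, complement and coagulation, fat, muscle and pancreas had opposite signs too. The difference between the mice was not tested. Glutathione and NRF2 target genes (24) had a median of -0.46 in mouse 1 alone and 0.06 in mouse 2 alone. Cbr3, a carbonyl reductase, had 5.81 and 9.93 in AXB19a, against 9.70 and 9.21 in AXB19 and 8.86, 9.05 and 9.62 in AXB19b, so that mouse 1 was below all sisters and mouse 2 above them. Interferon response genes (31) had a median of 0.10 in mouse 1 alone and -0.44 in mouse 2 alone, and AXB19b differed from AXB19 at them by a median of -0.26. Mx1, an antiviral GTPase that was below the mean of the sisters in both mice, had 6.09 and 5.64 in AXB19a, against 6.47 and 6.56 in AXB19 and 6.33, 6.84 and 5.81 in AXB19b. Sex-biased and growth hormone dependent genes (32) had a median of 0.48 in mouse 1 alone and -0.05 in mouse 2 alone, and the female-biased transcription factor Cux2 had 6.63 in AXB19a mouse 1 and 3.85 in mouse 2, against 3.55 and 4.92 in AXB19 and 3.80, 3.37 and 3.01 in AXB19b. No member of the 3 lists described here was called over both mice.

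**Figure D5:**
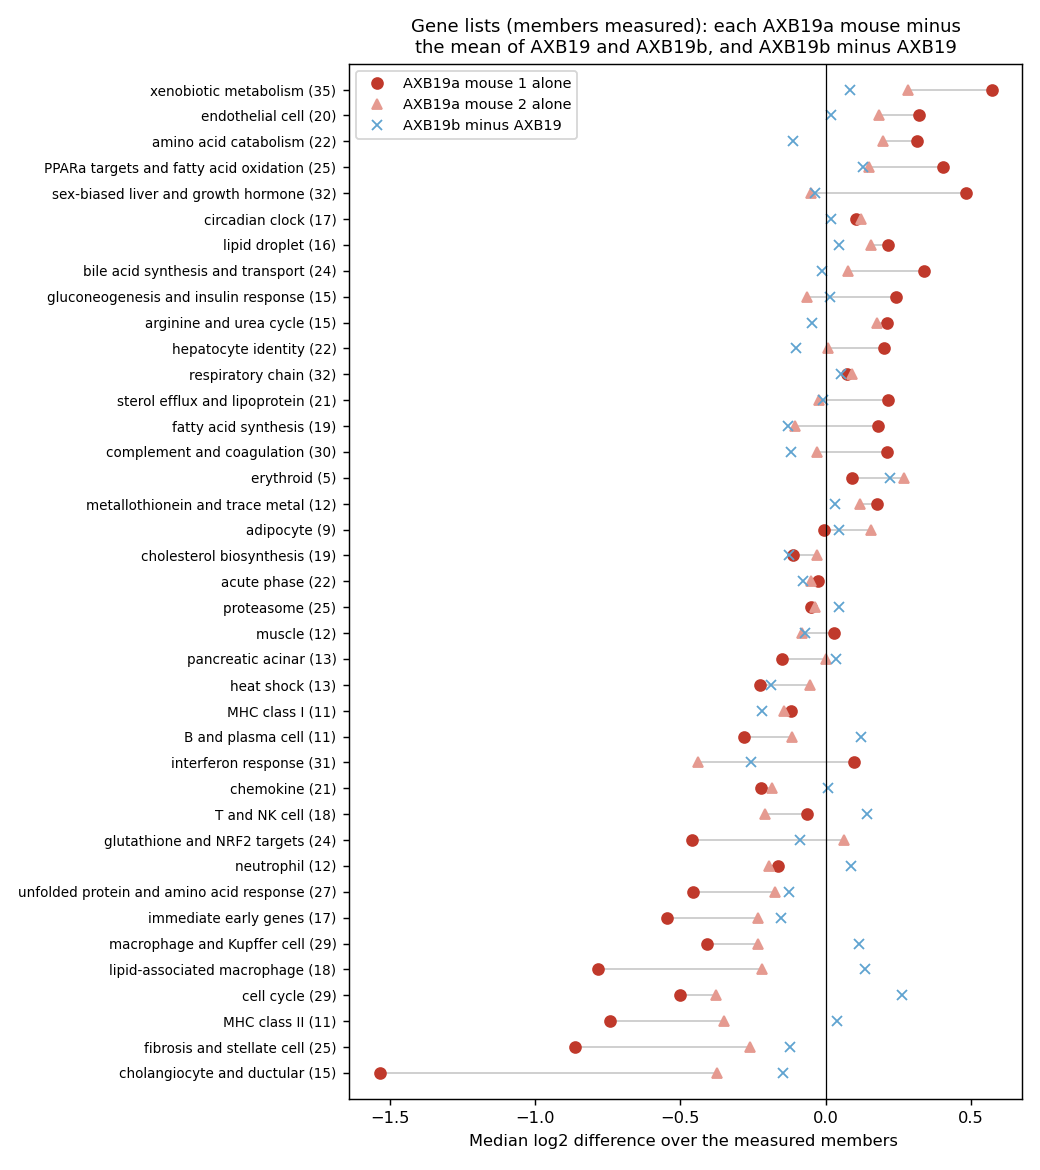
Median log2 difference over the measured members of each gene list (number in brackets), for AXB19a mouse 1 alone (circles) and mouse 2 alone (triangles) against the mean of AXB19 and AXB19b, and for AXB19b minus AXB19 (crosses). The bile duct list lies at -1.54 in mouse 1 and -0.37 in mouse 2, and the xenobiotic list at 0.57 and 0.28.

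Of the lists not described above, acute phase genes had 1 of 22 called lower (Apcs), B and plasma cell genes 1 of 11 lower (Cd22, a B cell lectin) and complement and coagulation genes 1 of 30 higher (Klkb1, plasma prekallikrein). Cd22 had 5.75 and 6.33 in AXB19a, against 6.68 and 6.70 in AXB19 and 6.80, 6.73 and 7.03 in AXB19b (difference -0.73, SE 0.18). The unfolded protein and amino acid response list (27 genes) had a median of -0.32 with 0 called, and the immediate early genes (17) a median of -0.32 with 0 called. Markers of blood, muscle, pancreas and fat had 0 called members and medians between -0.07 and 0.07.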

How the data were processed

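The authors deposited 1 table of log2 signals, summarised per probe set by RMA, for livers each hybridised to its own Affymetrix HT MG-430 PM array. GCOS and RMA are named in the submitters' processing notes without a version, and whether batches were corrected is not stated there. Of 45141 rows, 104 array controls were removed, which left 45037 probe sets. The platform annotation gave 1 gene symbol to 28898 of them and several to 551, which were not named. RefSeq records of assembly GRCm38.p6 gave the chromosome and the order of genes and changed 0 symbols. Each of 17097 genes was read by its brightest probe set, judged on the mean of all mice.

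Mice were grouped by the strain label and numbered in accession order, so that a number names a mouse and pairs nothing. A linear model with 1 mean per strain was fitted over the 87 strains with 2 or more mice in limma 3.58.1 (R 4.3.3), with 124 residual degrees of freedom. The contrast was AXB19a minus the mean of the AXB19 and AXB19b strain means, with eBayes moderation, two-sided tests and Benjamini-Hochberg adjustment over all probe sets, and a call at an adjusted p under 0.05. With AXB19a mouse 1 or mouse 2 left out, the remaining mouse was assumed to vary like mice of other strains. Named genes were the 15 largest rises and 15 largest falls among called genes of like sign against both sisters, up to 4 members of each gene list, progenitor-like genes on which the substrains were scored differently, and Apoe. The substrains to compare and the gene lists were chosen with earlier results of these data known, and mice entered by their strain label. Script output was checked on simulated data with known differences. Arrays have no sequencing depth, and precision is set by how few mice each substrain has. The alternatives tried were the mice in the fit, the eBayes prior, a filter on dim probe sets, the scaling, the probe sets per gene, the weights of the sisters and leaving out each mouse.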

Additional observations from a re-analysis of the deposited data

How the results depend on the processing

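No paired analysis was possible because the labels give the mice no replicate numbers, and a number given in accession order pairs nothing. Probe set counts for AXB19a against both sisters, 202 over all mice, ran from 4 to 1077 when each of the 7 mice was left out in turn, and the 96 genes from 2 to 599. The same ranges were 3 to 565 against AXB19, 3 to 585 against AXB19b, 0 to 2 for AXB19b against AXB19, 5 to 407 probe sets and 1 to 225 genes for any difference among the 3, and 0 to 73 list members with an AXB19a mouse left out. With a spread from only the 7 mice, the counts were 116 probe sets (89 higher, 27 lower) and 49 genes against both sisters, 43 probe sets against AXB19, 0 between the sisters, and 36 probe sets and 16 genes for any difference. With the spread of only the AXB/BXA strains they were 37 against AXB19, 1 between the sisters, and 40 probe sets and 19 genes for any difference. Testing only probe sets with a mean above the median, which lowers the number tested, gave 541 probe sets and 305 genes against both sisters, 132 against AXB19, 178 against AXB19b, and 152 probe sets and 77 genes for any difference. With the mean of all probe sets of a gene, 234 genes were called against both sisters and 79 against AXB19 (38 by the main probe set). There were 82 against AXB19b (37) and 83 for any difference (34). The adjustment then ran over genes and not over all probe sets, which also lowers the number tested. The cause of the higher counts was not tested. Repeated quantile normalization and centring each gave 1 probe set between the sisters. With looser limits on the progenitor probe sets (879 of them), AXB19a and the sisters were scored alike at a median of 55.4%, against 72.7% of the 121. Of the 60 named genes only Cbr3 turned direction, with -3.51 without AXB19a mouse 2 and 0.61 without AXB19a mouse 1. Leaving out a mouse ended the call of a named gene 116 times, 46 of them without AXB19a mouse 1 and 33 without AXB19 mouse 1, and the other alternatives 76 times, 36 of them with a spread from only the 7 mice.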
